A study of Mus musculus with 6 samples.

Results

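SWI/SNF and other ATP-dependent chromatin remodellers are multi-subunit enzymes that use ATP to slide, evict or exchange nucleosomes, and so set which stretches of DNA other proteins can reach. The SWI/SNF family is built on the ATPases encoded by Smarca2 and Smarca4 and comes in forms that differ in subunits. BAF carries ARID1A or its paralog ARID1B, PBAF carries ARID2 with PBRM1, and a smaller form carries BRD9 and BICRA. The ISWI, CHD and INO80 families are separate enzymes with their own partners. The genes described here are 43 named remodeller genes, chosen by symbol from a list of BAF and PBAF subunits followed by ISWI, CHD, INO80 and related genes. Of these, 42 were matched among the 22287 genes of the count table, and all 42 were among the 17305 genes with enough reads to test. Actl6b, a neuronal actin-related subunit gene, was not analysed here.

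RNA was sequenced from the apical region of the mandibular first molar, the part of the tooth in which the root forms, in C57BL/6 mice at postnatal day 7.5. The mutant group was Gli1-CreER;Arid1a fl/fl (3 libraries, replicates 3, 4 and 5), in which the Cre recombinase is made by cells that express Gli1, a Hedgehog target, and is active only after tamoxifen. The control group was Arid1a fl/fl without the Cre (3 libraries, replicates 2, 3 and 5). Every animal in both groups received tamoxifen, 1.5 mg per 10 g of body weight at postnatal day 3.5. Effects of the CreER allele and of the deletion cannot be told apart in this design, and cells that never express Gli1 are not targeted. The labels do not say whether a library came from 1 animal or several. The p-values therefore reflect only library-to-library spread, which may be technical. In bulk tissue, fewer cells of a type and less RNA per cell cannot be told apart. By its title, the series concerns Arid1a in the exit of root progenitors from the cell cycle, and the question here is whether the paralogs of Arid1a or other remodellers shift when it is deleted.

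Libraries held 20453247 to 24255352 estimated counts. Levels are CPM, counts scaled to a library of fixed size after correction by trimmed mean of M values (TMM). The tissue carried the markers of tooth, with Dspp at 6911 to 9983 CPM in mutants and 8586 to 9575 CPM in controls. The enamel gene Amelx stood at 37116 to 62078 CPM in mutants and 109351 to 209047 CPM in controls. It was the most abundant gene in every library but mutant replicate 5, and took 10.7% to 18.2% of all counts in controls. Scaling by library totals alone in place of TMM put the median over all genes at a log2 fold change of 0.21 in place of 0.01. Xist, which is transcribed from the inactive X chromosome of females, stood at 799 and 1298 CPM in mutant replicates 3 and 5 and at 0.130 CPM in mutant replicate 4. It stood at 1019 CPM in control replicate 3 and at 0.632 and 2.39 CPM in control replicates 2 and 5, so the groups differed in the mix of sexes.

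Of the 42 remodeller genes, 2 fell and 0 rose in the mutants. The threshold was a Benjamini-Hochberg adjusted p of 0.05 over all tested genes, from edgeR's quasi-likelihood test. Across all tested genes 1.2% were called lower, 0.659% higher and 1.86% either way. The 2 that fell were Arid1a itself and Dpf3, a subunit gene of BAF. No member was called higher by DESeq2, limma-voom or any other alternative tried, and 1 member, Smarca1, was higher at an unadjusted p under 0.05, against 7 that were lower. Over all tested genes those shares were 7.13% and 7.83%, or 15% in either direction, against 8 of 42 members. Arid1a, which the design was meant to lower, is counted among the 2, the 7 and the 8. The median log2 fold change was -0.05 over the members and 0.01 over all tested genes. The members' median was 0.01 without mutant replicate 3, so its sign rests on that library. With library totals alone it was 0.15, below the 0.21 of all genes by about as much as with TMM.

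**Figure D1:**
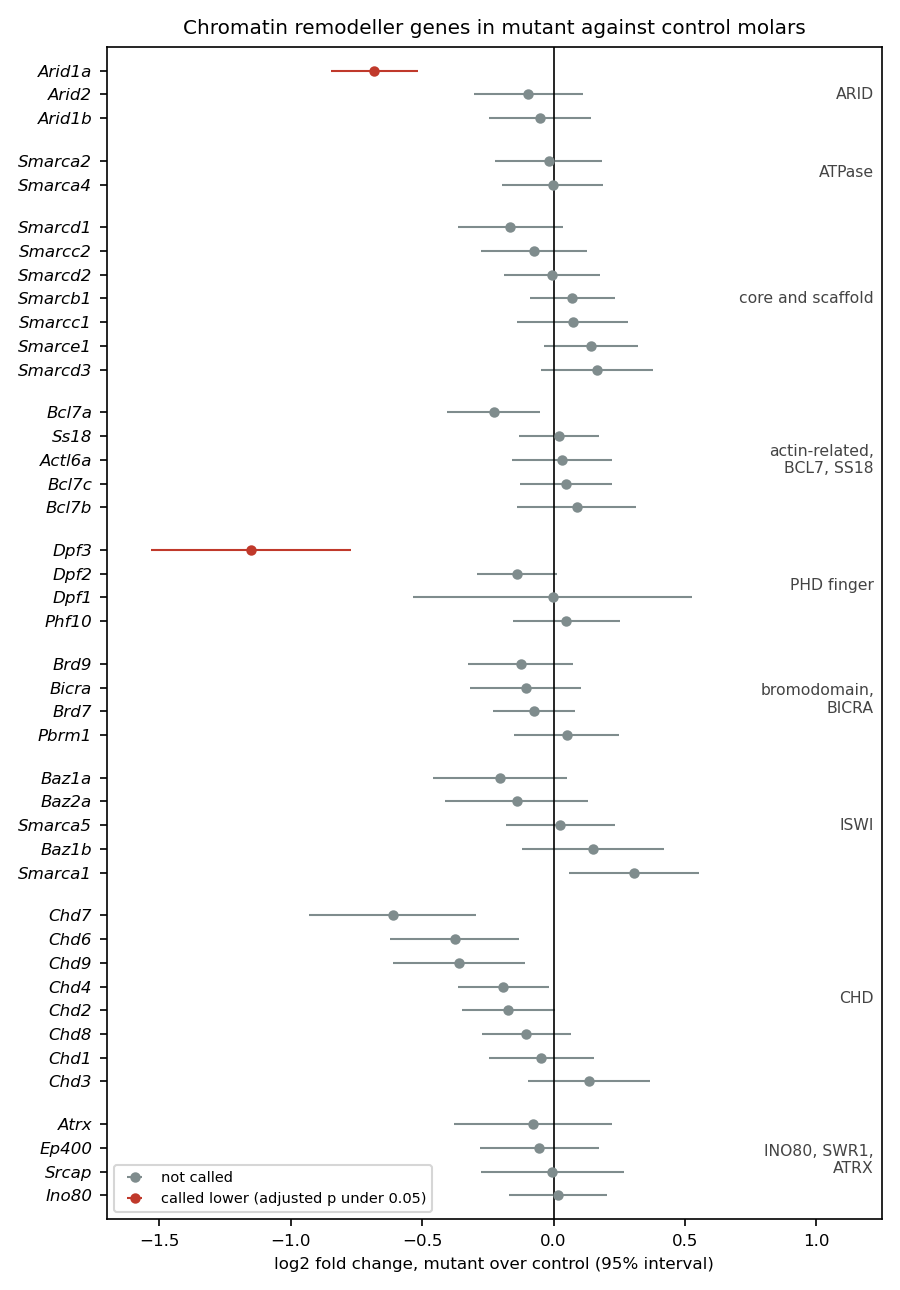
Log2 fold change of mutants over controls for the 42 remodeller genes (points) with 95% intervals (bars), grouped by complex and ordered within each group. Only Arid1a and Dpf3 (red) were called. Most other intervals cross 0, and the CHD genes lie mainly left of it.

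Arid1a, the targeted gene, encodes the large DNA-binding subunit that defines BAF. It stood at 119.5, 134 and 130.5 CPM in mutant replicates 3, 4 and 5, against 209.5, 202 and 204 CPM in control replicates 2, 3 and 5. All mutant libraries lay well below all control libraries, and each group was tight (128 ± 7.36 CPM in mutants, 205 ± 3.96 CPM in controls, SD, n = 3 each). The mutant level was 0.623 of the control level (95% interval 0.555 to 0.699, log2 fold change -0.68, SE 0.07, adjusted p = 0.0129, edgeR). The gene lies on chromosome 4 of mm10 (133679008 to 133756769, minus strand) and shares no exon bases with another gene of GENCODE M21. Counts cover the whole gene, so they do not resolve the floxed exons or the targeted cells. The adjusted p was 0.0506 without control replicate 2 and 0.0529 without control replicate 3, with log2 fold changes of -0.66 and -0.69.

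Arid1b, the paralog that can take the place of ARID1A in BAF, was not called. Its values were 103, 104 and 99.2 CPM in mutants and 99.9, 101 and 118 CPM in controls, so the groups overlapped. The 95% interval ran from 0.843 to 1.10 of the control level (log2 fold change -0.05, SE 0.08, adjusted p = 0.834, edgeR), so an increase of more than 1.10-fold lies outside it. Without control replicate 5, the highest library, the log2 fold change was 0.04, and with library totals alone it was 0.16 (adjusted p = 0.184), below the shift of all genes under that scaling. Arid2, which encodes the equivalent subunit of PBAF, stood at 108, 116 and 107 CPM in mutants and at 108, 114 and 132 CPM in controls. It was not called either (95% interval 0.810 to 1.08 of the control level, adjusted p = 0.689), with a log2 fold change of -0.10, or 0.11 with library totals alone.

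The ratio of the paralogs within a library is given as a description, since the fall of Arid1a with little difference in Arid1b fixes its direction. Estimated counts of Arid1b were 0.865, 0.781 and 0.760 of those of Arid1a in mutant replicates 3, 4 and 5, against 0.477, 0.498 and 0.578 in control replicates 2, 3 and 5. Every mutant ratio was above every control ratio. The mean log2 ratio was higher in mutants by 0.64, close to the difference in Arid1a itself. It does not depend on scaling between libraries. Of the counts of both genes together, Arid1a made up 53.6% to 56.8% in mutants and 63.4% to 67.7% in controls. Per length the genes were closer in mutants, at 11.1 CPM per kb of merged exons for Arid1a and 8.12 for Arid1b, than in controls, at 17.9 and 8.42.

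**Figure D2:**
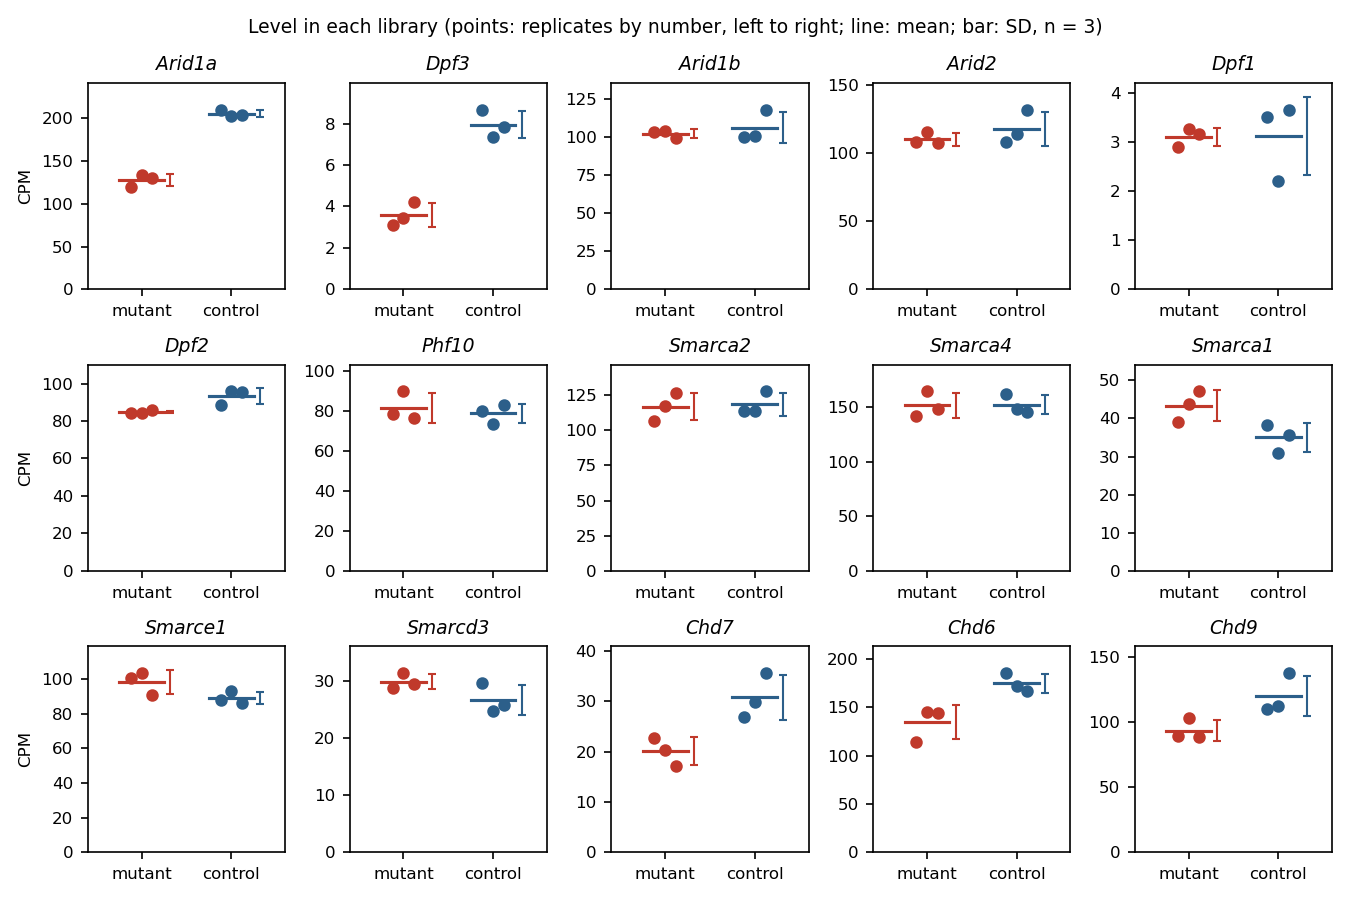
Level in CPM in each library for 15 remodeller genes, with mutants (red) left of controls (blue), a line for the mean and a bar for the SD (n = 3). Arid1a, Dpf3, Chd7, Chd6 and Chd9 have every mutant library below every control library, Dpf2 likewise by a small margin, and Smarca1 has every mutant library above. Over all tested genes, 10.8% had every mutant library below and 10.6% every mutant library above. Dpf3, Smarca1, Chd7, Chd6 and Chd9 are shown because they were called or had a small p.

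The catalytic subunits were not called, and their groups overlapped. Smarca4, the ATPase gene with the higher level per length, stood at 142, 165 and 149 CPM in mutants and 162, 149 and 146 CPM in controls, with wide overlap (95% interval 0.873 to 1.14 of the control level, adjusted p = 0.991, edgeR). Smarca2, which encodes the alternative ATPase, stood at 107, 117 and 127 CPM in mutants and 114, 114 and 128 CPM in controls (0.857 to 1.14 of the control level, adjusted p = 0.949). Both log2 fold changes were within 0.02 of 0 with TMM, and both turned from slightly negative to positive under some scalings and with some libraries left out, so neither gene has a direction. The log2 ratio of Smarca2 to Smarca4 averaged -0.38 in mutants and -0.36 in controls, with SDs of 0.13 and 0.16.

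The core and scaffold subunits, Smarcb1, Smarcc1, Smarcc2, Smarcd1, Smarcd2, Smarcd3 and Smarce1, gave 0 calls among 7 genes by edgeR and 0 by DESeq2. At an unadjusted p under 0.05 there were 0, against 15% of all tested genes. Fold changes were positive in 4 and negative in 3, and every 95% interval lay within 1.5-fold of the control level. With library totals alone all 7 were positive, with a median of 0.27, against 0.21 over all tested genes. Smarce1, which encodes a DNA-bending core subunit, had the smallest p of those above control, at 101, 104 and 90.8 CPM in mutants and 88.1, 93.2 and 86.2 CPM in controls (adjusted p = 0.444, log2 fold change 0.14, SE 0.08). Smarcd3, whose protein is the variant of this subunit best known from heart, stood at 28.8, 31.4 and 29.5 CPM in mutants and 29.6, 24.7 and 25.7 CPM in controls (log2 fold change 0.17, SE 0.09, adjusted p = 0.455). Both overlapped between the groups. In GENCODE M21, 48.2% of the exon bases of Smarcd3 are shared with Chpf2 on the other strand, and whether the libraries keep strand is not stated, so its counts are uncertain. Smarcd1 stood at 48.3, 47.2 and 50.1 CPM in mutants, below all controls at 51.4, 51.2 and 60.5 CPM, and did not pass (adjusted p = 0.433). Over all 42 members, 12, the targeted Arid1a among them, had every mutant library below every control library and 1 the reverse. Over all tested genes that separation occurred in 10.8% with mutants lower, 10.6% with mutants higher and 21.3% either way.

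Dpf3 was the second gene to fall and had the largest fold change of the members. It encodes a subunit with paired PHD fingers that read acetylated and methylated histones, and in mice and other vertebrates it is best known from heart, skeletal muscle and neurons. Its level was 3.09, 3.43 and 4.21 CPM in mutant replicates 3, 4 and 5, against 8.66, 7.35 and 7.84 CPM in control replicates 2, 3 and 5. The highest mutant library was far below the lowest control. The means were 3.58 ± 0.577 CPM in mutants and 7.95 ± 0.661 CPM in controls (SD, n = 3 each), a level of 0.450 of control (95% interval 0.346 to 0.585, log2 fold change -1.15, SE 0.16, adjusted p = 0.0227, edgeR). These levels rest on 80, 79 and 96 reads in mutants and 178, 157 and 144 reads in controls. All 6 counts were whole numbers, as when no read is shared out among genes, and the exons, on chromosome 12 of mm10 (83213745 to 83487716, minus strand), overlap no other gene of GENCODE M21. The fold change stayed between -1.29 and -1.06 with any library left out. The call was lost without mutant replicate 4 (adjusted p = 0.0863), control replicate 2 (0.0812), control replicate 3 (0.0825) or control replicate 5 (0.0782).

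The other genes of this subunit position did not follow. Dpf2, the widely expressed paralog and the highest of the 3 Dpf genes here, stood at 84.5, 84.3 and 85.7 CPM in mutants and 88.7, 95.8 and 95.6 CPM in controls. The groups did not overlap, but the difference was small and not called (log2 fold change -0.14, SE 0.07, adjusted p = 0.382). With library totals alone the log2 fold change was 0.07, against a median of 0.21 over all tested genes. Dpf1, known from neurons, was low in every library, at 2.90, 3.25 and 3.16 CPM in mutants and 3.502, 2.20 and 3.65 CPM in controls, and its interval was the widest of the BAF genes that were not called (0.691 to 1.44 of the control level, adjusted p = 0.997). Phf10, the subunit gene of PBAF at this position, stood at 78.6, 90.0 and 76.4 CPM in mutants and 79.9, 73.7 and 83.2 CPM in controls (adjusted p = 0.853). Per length, Dpf3 stood at 0.847 CPM per kb in mutants and 1.88 in controls, against 13.0 in mutants and 14.4 in controls for Dpf2 and 16.6 in mutants and 16.1 in controls for Phf10. The log2 ratio of Dpf3 to Dpf2 was -4.58 ± 0.22 in mutants and -3.56 ± 0.18 in controls (SD, n = 3 each).

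Markers of dental epithelium, muscle and neurons were read as lists beside Dpf3. The level of the epithelial list, the mean log2(CPM + 1) of its 13 genes, overlapped between the groups, at 8.86 to 9.58 in mutants and 9.32 to 9.83 in controls. Epithelial markers other than Amelx summed to 50540, 54256 and 32604 CPM in mutants against 70909, 83575 and 70826 CPM in controls, and most of that sum came from the enamel matrix genes Ambn (31222 CPM in mutants, 53470 CPM in controls) and Enam (8634 CPM in mutants, 16997 CPM in controls). Of the 13 epithelial markers, 9 had negative fold changes, and 1, Amelx, was called lower (48481 CPM in mutants, 146097 CPM in controls, adjusted p = 0.0470). At an unadjusted p under 0.05 (edgeR), 6 of the 13 were lower and 0 higher, against 7.83% and 7.13% of all tested genes. Those 6 were Amelx, Ambn, Enam, Krt17, Cdh1 and Trp63. Krt17 averaged 202 CPM in mutants and 279 CPM in controls. In the same order, Cdh1 averaged 128 and 160 CPM and Trp63 159 and 234 CPM. Krt14, a keratin of the basal layer, averaged 742 CPM in mutants and 727 CPM in controls (adjusted p = 0.968). Log2 fold changes were positive for Odam (0.93), Amtn (0.79) and Epcam (0.31), and none of these 3 was called. Muscle markers were sparse, summing to 5.53 to 15.7 CPM in mutants and to 36.0, 7.16 and 6.97 CPM in control replicates 2, 3 and 5, and the groups overlapped. None of the 6 tested was called, and Myod1, Myog and Actc1 were not analysed here. Neuron markers summed to 63.1 to 73.5 CPM in mutants and 52.9 to 59.0 CPM in controls, mostly from Tubb3. Without Tubb3 the sums overlapped, at 11.4 to 24.6 CPM in mutants and 6.52 to 16.7 CPM in controls, and 5 of the 10, Elavl3, Rbfox3, Nefl, Nefm and Prph, were too low to test. The part of any of these cell types in the level of Dpf3 was not tested.

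The remaining BAF and PBAF genes gave 0 calls among 9 by edgeR and 0 by DESeq2. At an unadjusted p under 0.05 there was 1, against 15% of all tested genes. That gene was Bcl7a, an accessory subunit gene, at 51.1, 54.2 and 51.7 CPM in mutants, below all controls at 61.9, 64.98 and 57.0 CPM (log2 fold change -0.23, SE 0.08, adjusted p = 0.200). Its paralogs Bcl7b and Bcl7c had log2 fold changes of 0.09 and 0.05, with overlapping groups. The actin-related subunit gene Actl6a (log2 fold change 0.03) and Ss18, known from its fusions in synovial sarcoma (0.02), were close to 0. Among the bromodomain genes of PBAF and of the BRD9 form, Pbrm1 was at 0.05, Brd7 at -0.07, Brd9 at -0.12 and Bicra at -0.11. With library totals alone all 4 were positive, with a median of 0.11, against 0.21 over all tested genes. Over the 25 BAF and PBAF genes, 6 had every mutant library below every control library and 0 the reverse, against 10.8% and 10.6% of all tested genes. The targeted Arid1a is among the 6. Among these 25 genes, Arid1a and Dpf3 were the only ones whose 95% interval reached beyond 1.5-fold. Over all tested genes, 57.5% had an interval within 1.5-fold.

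ISWI remodellers space nucleosomes in regular arrays. Of their 5 genes, 0 were called by edgeR and 0 by DESeq2. An unadjusted p under 0.05 was reached by 1, against 15% of all tested genes. Smarca1, the ATPase gene of this family best known from neurons and other differentiated cells, stood at 39.0, 43.8 and 47.1 CPM in mutant replicates 3, 4 and 5, above all controls at 38.3, 31.0 and 35.8 CPM. It did not pass (log2 fold change 0.31, SE 0.11, 95% interval 1.04 to 1.47 of the control level, adjusted p = 0.224). Smarca1 is on the X chromosome, and the libraries with Xist, mutants 3 and 5 and control 3, gave 39.0 and 47.1 CPM in mutants against 31.0 CPM in the control. The libraries without Xist gave 43.8 CPM in mutant replicate 4, against 38.3 and 35.8 CPM in control replicates 2 and 5. The first set holds 1 control library and the second 1 mutant library, and the part of sex was not tested. Its paralog Smarca5, the ATPase gene of proliferating cells, overlapped between the groups at 50.0 to 55.4 CPM in mutants and 45.8 to 54.4 CPM in controls (adjusted p = 0.928). The partner subunit genes Baz1a (log2 fold change -0.20), Baz1b (0.15) and Baz2a (-0.14) were not called.

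CHD genes held the lowest fold changes outside BAF. Of 8 tested, 0 were called by edgeR and 2, Chd7 and Chd6, were called lower by DESeq2, which called 2.89% of all genes lower and 2.11% higher. At an unadjusted p under 0.05, 4 of 8 were lower, against 7.83% of all tested genes. Fold changes were negative in 7 of 8 (median log2 fold change -0.18), against 48.0% of all tested genes. Every mutant library was below every control library in 6 of 8, against 10.8% of all tested genes. With library totals alone, 3 of 8 were negative, and the CHD median was 0.02, against 0.21 over all tested genes. Chd7, which encodes an enhancer-binding remodeller mutated in human CHARGE syndrome, stood at 22.7, 20.4 and 17.3 CPM in mutants, against 26.9, 29.9 and 35.6 CPM in controls. The groups were apart (20.1 ± 2.75 CPM in mutants, 30.8 ± 4.43 CPM in controls, SD, n = 3 each), but the gene missed the threshold (log2 fold change -0.61, SE 0.14, adjusted p = 0.0775, edgeR) and passed it only with DESeq2 (adjusted p = 0.00579).

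The close relatives of Chd7 lay the same way with smaller differences. Chd6 stood at 114, 145 and 144 CPM in mutants and 185, 171 and 166 CPM in controls (log2 fold change -0.38, SE 0.11, adjusted p = 0.135 by edgeR and 0.0299 by DESeq2). Mutant replicate 3 was the lowest library, and without it the log2 fold change was -0.27. Chd9 stood at 89.2, 103 and 89.0 CPM in mutants and 110.0, 113 and 138 CPM in controls (log2 fold change -0.36, SE 0.11, adjusted p = 0.161), or -0.24 without control replicate 5, the highest. Chd8, a gene in which human variants are linked to autism, was close to control (log2 fold change -0.10, SE 0.07, adjusted p = 0.577). Each of the 3 genes Chd7, Chd6 and Chd9 kept a negative fold change in every alternative, library totals included.

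Chd3 and Chd4 encode the alternative ATPases of NuRD, a complex that joins remodelling with histone deacetylation, and had the highest levels per length of all members. Chd3 stood at 385, 483 and 419 CPM in mutants and 399.7, 369 and 402 CPM in controls, with overlap (log2 fold change 0.13, SE 0.10, adjusted p = 0.602). Chd4 stood at 335, 347 and 318 CPM in mutants, below all controls at 378, 370.2 and 393 CPM (adjusted p = 0.277, log2 fold change -0.19, SE 0.07). The log2 ratio of Chd3 to Chd4 was 0.20, 0.48 and 0.39 in mutants and 0.08, -0.00 and 0.03 in controls, so every mutant library had the higher ratio. Neither gene was called, and the ratio was not tested. Chd1 and Chd2, which act at transcribed genes, had log2 fold changes of -0.05 and -0.17 and were not called. Chd2 is among the CHD genes with every mutant library below every control library. In GENCODE M21, 18.4% of its exon bases are shared with 1810026B05Rik on the same strand, so its counts depend on how reads were shared out. That gene had a log2 fold change of -0.41 and was not called.

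**Figure D3:**
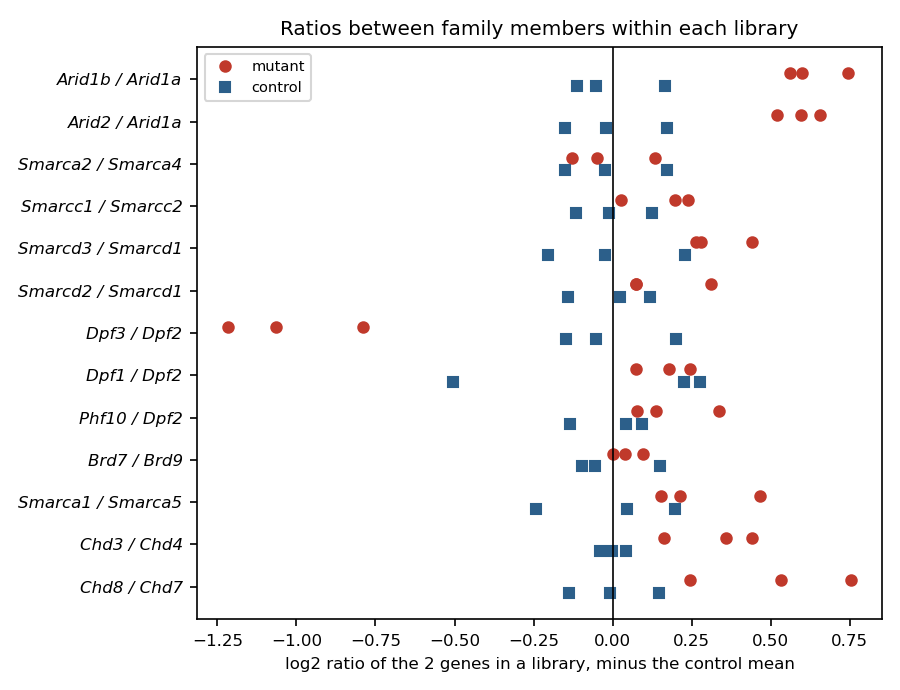
Log2 ratio between 2 members of a family in each library, minus the mean of the controls, for mutants (red circles) and controls (blue squares). The ratios of Arid1b and Arid2 to Arid1a lie right of all controls, the ratio of Dpf3 to Dpf2 lies left of them (mean difference -1.02), and the ratio of Smarca2 to Smarca4 overlaps.

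Ino80, Ep400, Srcap and Atrx encode large ATPases that exchange or deposit histone variants. Of these 4 genes, 0 were called by edgeR or DESeq2 and 0 had an unadjusted p under 0.05, against 15% of all tested genes. Log2 fold changes ran from -0.08 for Atrx to 0.02 for Ino80, and the groups overlapped for all 4. Atrx varied most, at 149, 201 and 203 CPM in mutants and 213, 186 and 184 CPM in controls, with mutant replicate 3 the lowest. For Srcap, 61.7% of the exon bases are shared with Gm42715 on the same strand in GENCODE M21, so its counts depend on how reads were shared out.

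The partners of these enzymes were read from a list of 64 further genes, covering other BAF genes and subunits of NuRD, ISWI, INO80, SRCAP and TIP60 complexes, ATPases of the same superfamily and Daxx, the partner of ATRX. All 64 were tested, and edgeR called 0, against 1.86% of all tested genes. At an unadjusted p under 0.05, 2 were higher and 3 lower, against 7.13% and 7.83% of all tested genes. DESeq2 called 1 higher and 0 lower, against 2.11% and 2.89% of all genes. The median log2 fold change was 0.01. The gene nearest to a call was Rbbp7, a histone chaperone gene shared by NuRD and Polycomb complexes. It stood at 118, 106 and 111 CPM in mutants, above all controls at 93.2, 86.9 and 90.8 CPM (log2 fold change 0.31, SE 0.07, adjusted p = 0.0866 by edgeR and 0.0220 by DESeq2). Rbbp7 is on the X chromosome. Libraries with Xist gave 118 and 111 CPM in mutants and 86.9 CPM in the only such control. Libraries without it gave 106 CPM in the only such mutant and 93.2 and 90.8 CPM in controls, and the part of sex was not tested.

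Among those partners, Uchl5, a deubiquitinase gene of the INO80 complex, stood at 19.5, 17.8 and 16.6 CPM in mutants and 14.2, 14.7 and 14.97 CPM in controls (log2 fold change 0.30, adjusted p = 0.198, or 0.0490 with library totals alone). Ruvbl2, a helicase-like subunit gene of the INO80 family, averaged 23.1 ± 0.362 CPM in mutants and 20.2 ± 1.78 CPM in controls (adjusted p = 0.391). On the lower side, Hltf, an ATPase gene of DNA damage tolerance, averaged 20.3 ± 2.86 CPM in mutants and 26.0 ± 0.937 CPM in controls (log2 fold change -0.36, adjusted p = 0.180). Bcl11a, a zinc finger gene whose protein can join BAF, averaged 53.3 ± 9.35 CPM in mutants and 66.0 ± 2.61 CPM in controls (log2 fold change -0.31, adjusted p = 0.286). Gatad2a, a NuRD subunit gene, averaged 76.8 ± 6.93 CPM in mutants and 92.0 ± 11.7 CPM in controls (adjusted p = 0.324, SD, n = 3 in each of these groups).

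Of the other marker lists, 5 had every mutant library above every control library in mean log2(CPM + 1), each at p = 0.1 by an exact two-sided permutation test, the smallest p that 3 against 3 libraries allow. These were proliferation (mutants higher by 0.62), macrophage (0.41), Schwann cell (0.20), endothelial (0.14) and odontoblast and dental mesenchyme markers (0.08). Of the 7 Schwann cell markers, 3 had every mutant library above every control library. The reverse held for 2, Mbp and Pmp22, against 10.6% and 10.8% of all tested genes. Summed, Schwann cell markers overlapped, at 115, 131 and 117 CPM in mutants and 126, 127 and 140 CPM in controls. Summed endothelial markers overlapped as well, at 293, 294 and 279 CPM in mutants and 241, 278 and 280 CPM in controls. Of the 6 endothelial markers, 5 had positive and 1 negative fold changes, and 0 were called. Of the 13 odontoblast and dental mesenchyme markers, 8 had positive and 5 negative fold changes. All 10 proliferation markers had positive fold changes, and 1, Ccnb1, was called higher. Their levels summed to 201, 289 and 258 CPM in mutants against 179, 147 and 142 CPM in controls. Erythroid markers summed to 2366 to 5510 CPM in mutants and 1423 to 1948 CPM in controls, and macrophage markers, of which Cd68 was called higher, to 282 to 367 CPM in mutants and 209 to 254 CPM in controls. The part of these cells in any remodeller level was not tested.

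Per length, the highest and lowest members were shared by both groups. Chd4 and Chd3 led, at 41.6 and 50.8 CPM per kb in mutants and 47.5 and 46.2 in controls, followed by Smarcc2 (27.8 in mutants, 29.3 in controls) and Smarca4 (23.5 in both). Arid1a was the 12th in mutants and the 5th in controls. Chd7, Dpf3 and Dpf1 were the 3 lowest in both groups. The 41 tested members other than Arid1a summed to 3514, 3957 and 3800 CPM in mutant replicates 3, 4 and 5, against 3965, 3801 and 3916 CPM in control replicates 2, 3 and 5, and the groups overlapped.

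**Figure D4:**
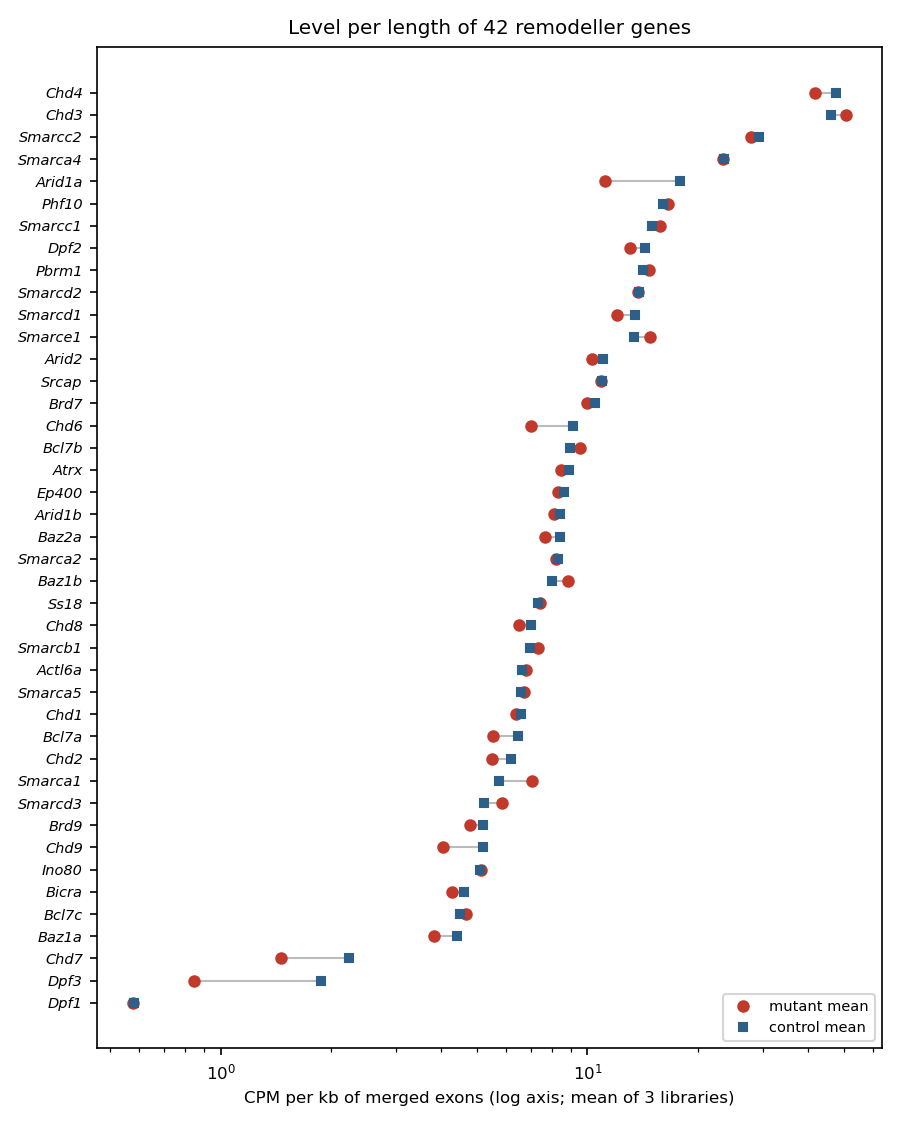
Mean level per kb of merged exons (log axis) of 42 remodeller genes in mutants (red circles) and controls (blue squares), ordered by the control mean. The gap is widest for Dpf3, Arid1a and Chd7, while Smarca4 and Dpf1 nearly coincide.

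Leaving out 1 library at a time gave 6 fits with fewer samples. A call lost in such a fit does not by itself show that it rests on the library left out. Arid1a was called in 4 of the 6 fits and Dpf3 in 2, and no other member was called in any of them. The fold changes moved little, from -0.71 to -0.64 for Arid1a and from -1.29 to -1.06 for Dpf3. Without control replicate 2 or control replicate 3, 0 members were called. Over all tested genes, calls in both directions were also fewer in each of the 6 fits than with all libraries. Of the 42 members, 15 had positive fold changes with all libraries, 22 without mutant replicate 3 and 10 without mutant replicate 4.

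**Figure D5:**
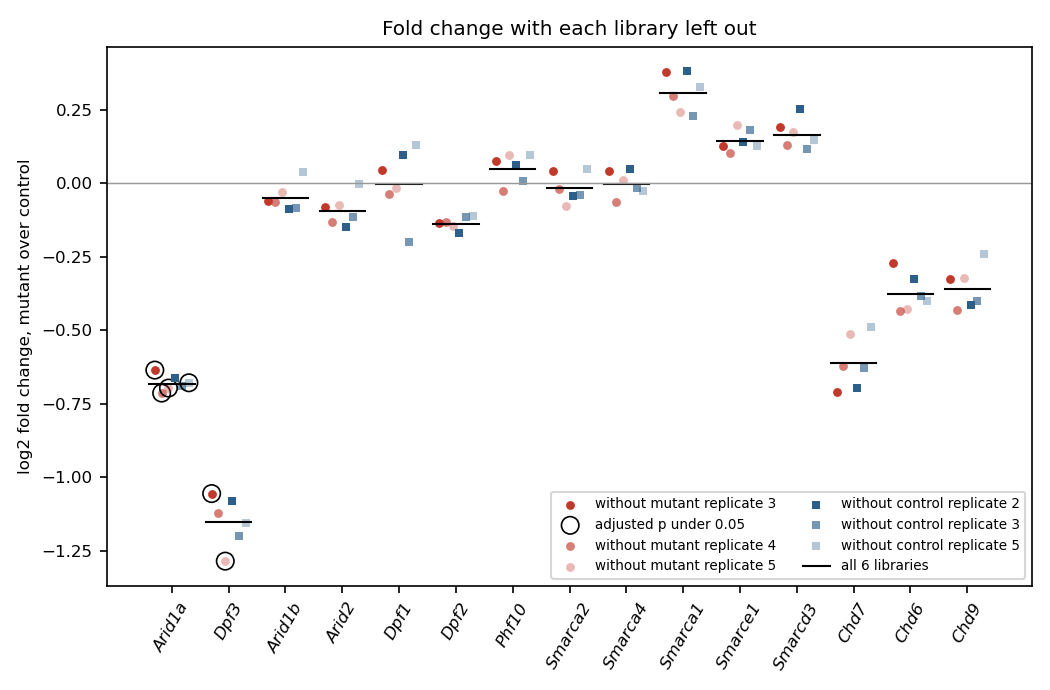
Log2 fold change of 15 remodeller genes with each library left out (red circles, a mutant left out; blue squares, a control left out) and with all 6 libraries (black line); black rings mark an adjusted p under 0.05. Rings occur only at Arid1a and Dpf3, while Arid1b, Dpf1, Smarca2 and Smarca4 scatter on both sides of 0.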

How the data were processed

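The authors deposited expected counts, estimated reads per gene that need not be whole, in a table named for Partek's expectation-maximisation quantification. The genome build mm10, Partek and the aligner STAR 2.6.1d are named, with no settings, per the submitters' processing notes. Library kit, strand and annotation are unstated. The authors also deposited a normalized signal for 18665 genes, equal to the expected count plus 1 times a factor per library, used for 1 alternative. Single-end reads of 75 cycles were used, per the labels' protocols.

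Expected counts were rounded. Genes passing edgeR's filterByExpr were scaled by TMM and tested with edgeR 4.0.16 (quasi-likelihood F test, R 4.3.3, limma 3.58.1, DESeq2 1.42.0), p-values being adjusted over all 17305 genes. Standard errors (SE) were obtained from the fold change and its F statistic. Fold changes are mutant over control. Members and lists were chosen with earlier results of these data known. Fully described genes were Arid1a, called members, their family members, Smarca2, Smarca4 and, in each direction, the 3 uncalled with the smallest p; Smarcd1, Bcl7a, Chd3, Chd4, Chd8, Smarca5 and Atrx were chosen after their values were seen. Of the further genes, those called or nearest to a call were named.

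Gene ends and lengths are from GENCODE M21, whose starts matched for all 42 members. Replicates differed by 24.5 to 45.0 in chi-square per degree of freedom, far above counting noise, so none was a copy. Scripts were tested on simulated data, where most changes of 1.5-fold were not called and the share of false calls was above the nominal rate, so a gene not called may still differ and calls near the threshold are less secure. Alternatives were other scalings, filters and tools, an adjusted p under 0.1, and each library left out.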

Additional observations from a re-analysis of the deposited data

How the results depend on the processing

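The counts of called members were 0 higher in the main fit, the 15 alternative fits and at an adjusted p under 0.1, and 2 lower with the other scalings, filters, limma-voom and the normalized table, 3 at an adjusted p under 0.1 (with Chd7), 4 with DESeq2 and 0 to 2 with a library left out. Of the 64 further genes, 1 was higher with DESeq2 and at an adjusted p under 0.1 (Rbbp7) and 2 with library totals alone (Rbbp7, adjusted p = 0.0354, and Uchl5, 0.0490). Over all genes, 114 were higher and 208 lower, against 411 and 109 with library totals alone, 360 and 493 with DESeq2, 272 and 400 at an adjusted p under 0.1, and 1 to 105 and 10 to 138 with a library left out, fits that have fewer samples. The members' median was 0.15 with library totals alone and -0.075 to 0.014 with a library left out. The Arid1a fold change ranged from -0.71 to -0.64 with a library left out. The Arid1b to Arid1a log2 ratio stayed 0.58 to 0.72 higher in mutants. Genes near 0 changed sign, and the cause was not tested. With library totals alone the values were 0.16 for Arid1b, 0.11 for Arid2, 0.20 for Dpf1, 0.067 for Dpf2, 0.19 for Smarca2 and 0.20 for Smarca4. The median over all genes was 0.21 under that scaling. With upper-quartile factors they were 0.014 for Dpf1, 0.0013 for Smarca2 and 0.014 for Smarca4. Dpf1 was 0.00086 with no filter, 0.035 with limma-voom and 0.019 on the normalized table, and Smarca4 was 0.00015 with no filter and 0.0062 on the normalized table. With a library left out, fold changes ranged from -0.089 to 0.038 for Arid1b, -0.20 to 0.13 for Dpf1, -0.026 to 0.095 for Phf10, -0.079 to 0.047 for Smarca2 and -0.065 to 0.049 for Smarca4, and marker level differences from -0.47 to 0.23 for muscle and -0.044 to 0.28 for osteoclasts. Replicate numbers 3 and 5 are shared by the groups. The deviations of same-numbered libraries correlated at 0.27 and -0.14, and those of differently numbered libraries at -0.45 to 0.30. With so few libraries, these values cannot settle whether same-numbered libraries were paired. With the replicate block, 0 members, 19 genes higher and 71 lower were called, Arid1a was at -0.70 (adjusted p = 0.0769), and Dpf1 was at 0.090 and Phf10 at -0.015. Depth limits Dpf1 and Dpf3 most, at 47 to 178 reads a library.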
